A study of Mus musculus with 24 samples.

Results

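Chromatin opened in cultured epidermal stem cells (EpdSCs) carrying SOX9 with or without its DNA-binding HMG domain was compared as 2 peak lists from ATAC-seq, an assay in which a transposase cuts accessible DNA. The WT-SOX9 list and the ΔHMG-SOX9 list were merged wherever peaks overlapped by at least 1 bp, which gave 67377 regions of the 134385 that all 12 lists of the series cover. Of these, 16046 regions (23.8%) were in the WT-SOX9 list only, 15270 (22.7%) were in the ΔHMG-SOX9 list only and 36061 (53.5%) were in both. Another list, from cells without doxycycline (noDOX), was used to label each region as listed or not listed without DOX, and its scores are set beside those of some regions. A region missing from a list had no peak that reached the authors' score threshold of 3, and it was not shown to be closed.

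The cells were keratinocytes cultured from the back skin of male CD1 mice with a Krt14-driven rtTA, the activator that turns on a TRE promoter when doxycycline (DOX) is given. The paper describes the isolation of its primary EpdSCs from newborn male pups. The WT-SOX9 cells carried TRE-myc-Sox9 and the ΔHMG-SOX9 cells carried TRE-myc-Sox9noHMG, both delivered by lentivirus and selected with puromycin, and both received DOX at 1 µg/ml. Day 3 is labelled for 1 sample of each of these groups, and the time of the other sample is not labelled. The noDOX cells carried the wild-type transgene and received no DOX. No list of uninduced ΔHMG-SOX9 cells was used here, so the missing domain and any other difference between the transduced cultures cannot be told apart. Each group had 2 samples, and the authors merged them before they called peaks. There is thus no spread between replicates behind any value below. Intervals are 95% Wilson intervals of a share, or Newcombe intervals of a difference between shares, and they cover counting error only. Depth is unknown, because a peak list carries no read totals. In bulk cells, fewer cells that carry an open site and less opening per cell cannot be told apart, and neither can a different share of transduced cells.

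SOX9 is a transcription factor of the SOX family and a specifier of hair follicle stem cells (HFSCs). Its HMG domain is an L-shaped fold that binds the minor groove of DNA and bends it, and it recognises sequences built on the core ACAAT or ACAAA. A pioneer factor is one that can bind its site in closed, nucleosome-covered chromatin and open it. The transactivation (TA) domain of SOX9 lies outside the HMG domain and contacts co-factors, so the ΔHMG protein keeps a part that binds other proteins. AP1 is a dimer of FOS and JUN proteins that binds TGACTCA and is abundant at enhancers of basal keratinocytes.

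The regions fell into 6 classes by the 3 lists. Those in the WT-SOX9 list only and not listed without DOX are called WT-gained (12488), and those in the WT-SOX9 list only and listed without DOX are called WT-kept (3558). Likewise, ΔHMG-kept regions (8791) were listed without DOX and lost from the WT-SOX9 list, and ΔHMG-gained regions (6479) were in the ΔHMG-SOX9 list alone. The shared regions were split into 34469 listed without DOX and 1592 not listed.

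To show what sequence these classes hold, the central 200 bp of some members with the highest scores is printed from GRCm38, + strand, 5′ to 3′. The members shown are the 2 highest-scoring WT-gained, ΔHMG-kept and ΔHMG-gained regions with a match to the named consensus, by the rule given with the processing. Capitals mark each match on either strand. The WT-kept pair under that rule matched the consensus of the insulator protein CTCF and is not printed. The first pair are WT-gained regions, matched to the SOX consensus ACAATAG or ACAATGG: chr11:34739021-34739220, in an intron of Dock2, a guanine exchange factor for RAC, and chr6:16995680-16995879, intergenic, 69.4 kb upstream of the nearest start, that of Tes.
Dock2 intron: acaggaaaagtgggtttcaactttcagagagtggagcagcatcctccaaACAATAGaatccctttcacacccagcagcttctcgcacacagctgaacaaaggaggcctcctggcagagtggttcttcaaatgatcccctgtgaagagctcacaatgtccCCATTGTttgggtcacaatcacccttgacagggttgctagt
Upstream of Tes: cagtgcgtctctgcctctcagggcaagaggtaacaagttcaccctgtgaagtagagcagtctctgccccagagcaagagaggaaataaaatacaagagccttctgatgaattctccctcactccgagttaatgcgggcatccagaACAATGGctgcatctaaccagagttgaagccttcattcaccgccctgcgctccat
The next pair are ΔHMG-kept regions matched to the AP1 consensus TGACTCA: chr10:81101538-81101737, intergenic and 2.76 kb upstream of Creb3l3, and chr10:50624766-50624965, in an intron of Ascc3.
Upstream of Creb3l3: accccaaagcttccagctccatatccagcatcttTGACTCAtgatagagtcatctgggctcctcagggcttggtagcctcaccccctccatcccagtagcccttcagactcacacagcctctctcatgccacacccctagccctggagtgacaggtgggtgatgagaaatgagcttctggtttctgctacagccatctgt
Ascc3 intron: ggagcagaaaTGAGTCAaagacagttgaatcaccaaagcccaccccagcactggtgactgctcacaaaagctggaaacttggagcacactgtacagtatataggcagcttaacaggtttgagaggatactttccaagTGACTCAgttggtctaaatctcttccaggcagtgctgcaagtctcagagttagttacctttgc
The third pair are ΔHMG-gained regions with the same AP1 consensus: chr6:52617370-52617569, in an intron of Hibadh, and chr8:80032747-80032946, in an intron of Hhip, which encodes a Hedgehog-binding inhibitor of that pathway.
Hibadh intron: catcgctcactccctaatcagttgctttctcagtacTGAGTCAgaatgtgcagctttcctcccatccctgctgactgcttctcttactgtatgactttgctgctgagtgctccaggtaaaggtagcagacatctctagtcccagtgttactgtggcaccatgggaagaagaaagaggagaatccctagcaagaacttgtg
Hhip intron: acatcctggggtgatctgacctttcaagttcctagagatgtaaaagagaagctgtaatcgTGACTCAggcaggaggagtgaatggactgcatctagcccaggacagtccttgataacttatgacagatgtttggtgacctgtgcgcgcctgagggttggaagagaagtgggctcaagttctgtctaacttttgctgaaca

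These windows had contrasting scores. The Dock2 region scored 88.8 with WT-SOX9 and was in neither the noDOX nor the ΔHMG-SOX9 list. The Tes region scored 82.2 with WT-SOX9 and was likewise in neither of the others. The Creb3l3 region scored 26.8 without DOX and 50.5 with ΔHMG-SOX9, and the Ascc3 region scored 34.9 and 47.2, and both were missing from the WT-SOX9 list. The Hibadh and Hhip regions scored 25.5 and 24.0 with ΔHMG-SOX9 and were missing from both other lists. The score is the one deposited with each peak, and within each list it was taken as scaled to a common total. The Dock2 window also holds 2 ACAAT cores that face each other across 6 bases, an arrangement taken up below. The second of these cores lies within the consensus match CCATTGT.

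Most regions that WT-SOX9 cells had and ΔHMG-SOX9 cells lacked were not listed before induction. Of the 16046 WT-only regions, 77.8% (77.2% to 78.5%) were not listed without DOX, whereas 57.6% (56.8% to 58.4%) of the 15270 ΔHMG-only regions were listed without DOX. Of the 20559 regions not listed without DOX, 60.7% were WT only, 31.5% were ΔHMG only and 7.74% were in both lists. Thus regions that appeared in both cultures were few beside those that appeared in 1 of them. Of the 46818 regions listed without DOX, 73.6% were in both lists, 18.8% were kept with ΔHMG-SOX9 alone and 7.60% were kept with WT-SOX9 alone. Of the 53093 noDOX peaks, 6296 (11.9%) overlapped neither list. WT-only shares by chromosome ran from 19.1% on chromosome 7 to 26.7% on chromosome 3 and ΔHMG-only shares ran from 20.5% on chromosome 5 to 27.0% on chromosome X.

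The classes also differed in score, width and place. The median score was 5.80 in WT-gained, 5.47 in WT-kept, 6.33 in ΔHMG-kept and 4.39 in ΔHMG-gained regions, against 20.4 in shared regions listed without DOX. A score of at least 20 was reached by 1165 WT-gained regions (9.33%) but by 12 ΔHMG-gained regions (0.185%). Scores under 4 made up 26.3% of WT-gained and 39.6% of ΔHMG-gained regions. The weakest members of both single-list classes scored 3, the threshold itself, so regions just outside are unknown. The strongest WT-only region scored 100 and the strongest ΔHMG-only region 69.4. The median width was 426 bp in WT-gained and 228 bp in ΔHMG-gained regions. All 4 single-list classes lay mostly away from transcription starts, though often inside genes: 2.84% of WT-gained, 8.66% of WT-kept, 3.69% of ΔHMG-kept and 4.14% of ΔHMG-gained regions were within 1 kb of a transcription start, against 30.8% of shared regions listed without DOX. Introns held 48.8% of WT-only and 49.7% of ΔHMG-only regions, and intergenic DNA held 46.9% and 46.3%.

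**Figure D1:**
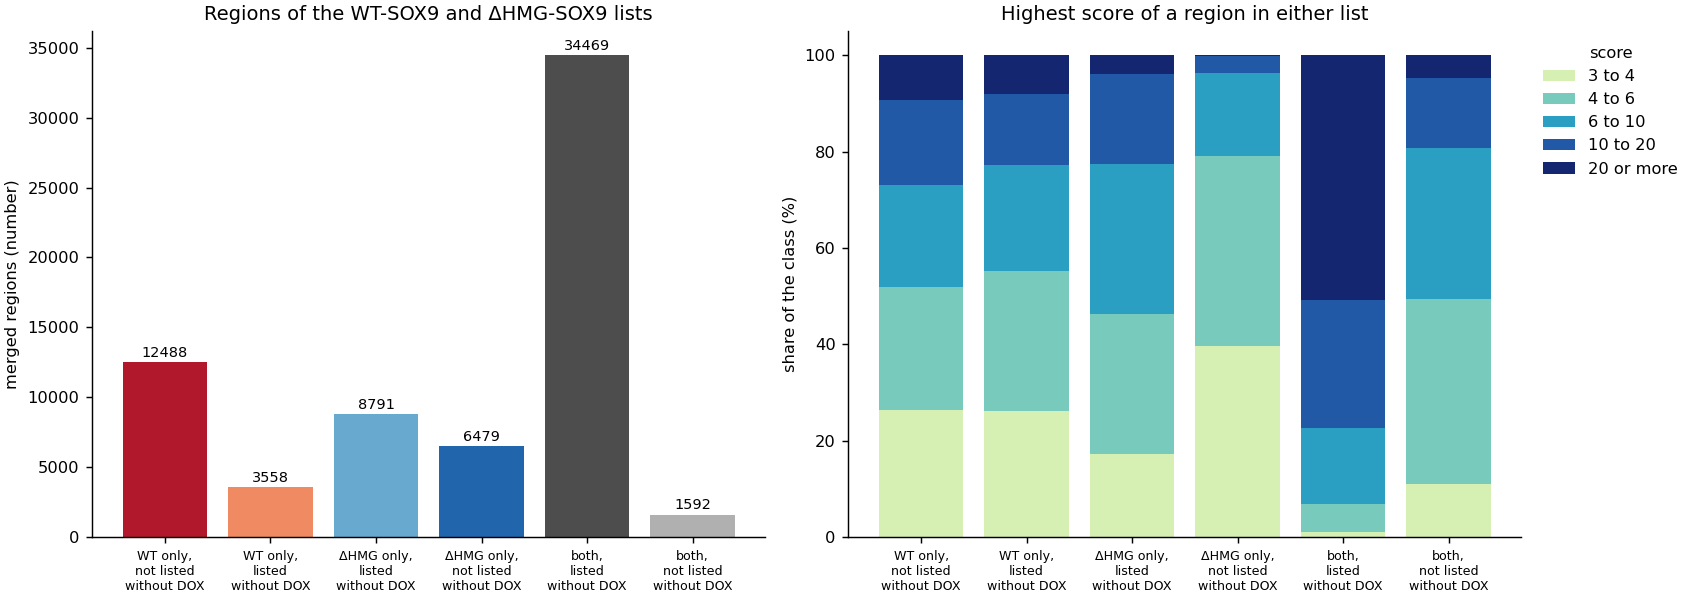
The left panel gives the number of merged regions in each of the 6 classes, and the right panel gives the share (%) of each class in 5 ranges of the highest score a region had in either list. WT-gained regions (WT only, not listed without DOX; 12488) are the largest single-list class, and ΔHMG-gained regions (ΔHMG only, not listed without DOX) have nearly no scores of 20 or more.

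The SOX consensus was found mainly in WT-gained regions. In the central 200 bp, 18.3% of WT-gained regions (17.6% to 19%) held ACAATAG or ACAATGG on either strand, against 6.75% of all regions of the union. The share was 8.35% in WT-kept, 2.80% in ΔHMG-kept and 4.14% in ΔHMG-gained regions, and 3.90% in shared regions listed without DOX. The difference between WT-gained and ΔHMG-gained regions was 14.2 percentage points (13.3 to 15). ΔHMG-gained regions and shared regions listed without DOX differed by 0.24 points, with an interval from −0.26 to 0.79. Windows of WT-gained regions had a lower GC content (median 44.5%) than those of ΔHMG-gained regions (48.5%), and among windows with 45 to 50% GC the SOX shares were 18.02% in WT-gained, 4.07% in ΔHMG-gained and 3.19% in ΔHMG-kept regions. The SOX share of WT-gained regions was 14.8% at scores of 3 to 4 and 24.6% at scores of at least 20.

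The AP1 consensus had the opposite distribution. TGACTCA was in 35.8% of ΔHMG-kept regions (34.8% to 36.8%), 30.7% of ΔHMG-gained regions (29.6% to 31.8%) and 11.5% of WT-gained regions (10.95% to 12.1%), against 21.6% of all regions. WT-gained regions were 19.2 points below ΔHMG-gained regions (17.9 to 20.4 points) and 24.3 points below ΔHMG-kept regions. Shared regions listed without DOX held it in 20.5% and WT-kept regions in 18.6%. Part of this order moved with GC content and place. Among windows with 45 to 50% GC, AP1 was in 38.6% of ΔHMG-kept, 32.6% of ΔHMG-gained, 11.8% of WT-gained and 31.7% of shared regions listed without DOX. There ΔHMG-gained regions differed from those shared regions by 0.90 points, with an interval from −1.36 to 3.21, whereas ΔHMG-kept regions were 6.97 points above them (4.89 to 9.07) and WT-gained regions 19.9 points below (18.3 to 21.4). Over 1 kb from starts, the shares were 36.4%, 31.4%, 11.7% and 28.5%. The AP1 share of ΔHMG-kept regions was 30.8% at scores of 3 to 4 and 41.9% at scores of at least 20. In WT-gained regions, AP1 was no more frequent beside SOX: it was in 10.7% (9.47% to 12%) of those with a SOX match and in 11.7% (11.1% to 12.3%) of those without.

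Other consensus sequences separated the classes by fewer percentage points, though rare ones varied by large factors. TGTGGT, bound by RUNX factors, was in 18.8% of WT-gained, 17.4% of ΔHMG-kept and 20.9% of ΔHMG-gained regions, against 16.7% of all regions. AGATAA, bound by GATA factors, was in 12.1%, 10.7% and 10.6% of these classes, against 8.90% of all regions. ACATTCC, bound by TEAD factors, was in 7.22% of WT-kept regions and 5.26% of WT-gained regions. The CTCF consensus, bound by the insulator protein CTCF, was in 8.98% of the 1592 shared regions not listed without DOX, 4.69% of WT-kept and 0.853% of ΔHMG-kept regions, against 2.34% of all regions. CCGGAAGT, bound by ETS factors, was in 1.54% of shared regions listed without DOX and in 0.0961% of WT-gained regions, against 0.893% of all regions. All matches were sought on both strands, and a match is a run of letters and not a bound site.

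**Figure D2:**
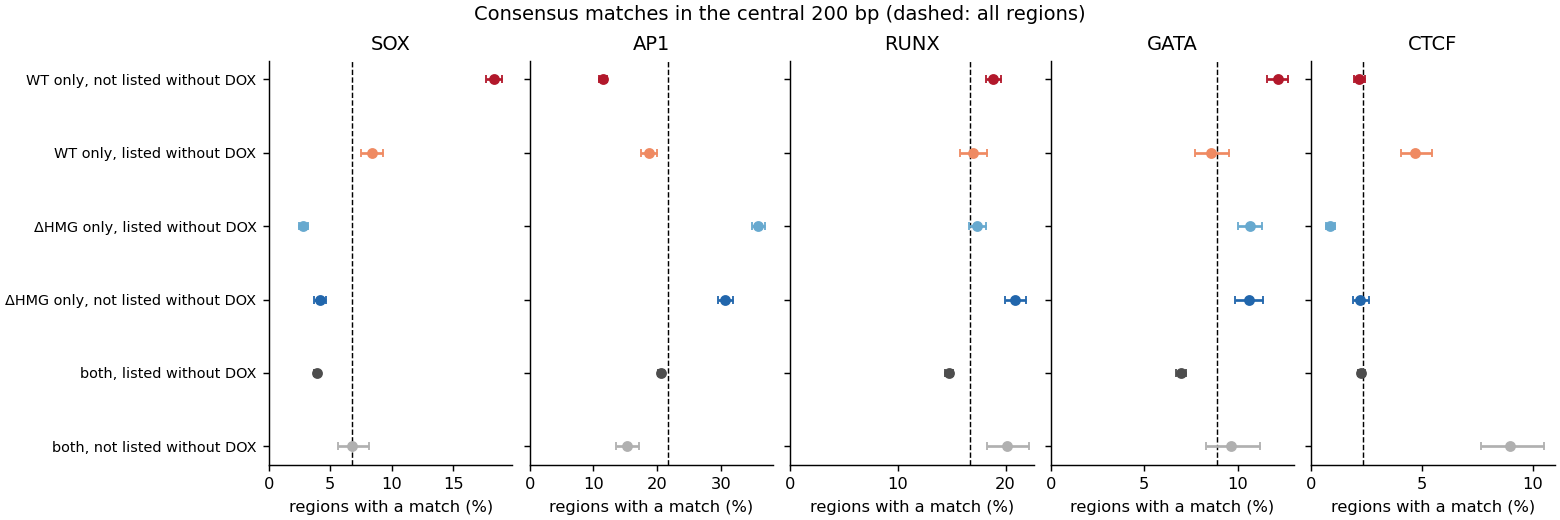
Each panel gives, for 1 consensus, the share (%) of regions in each of the 6 classes with a match in the central 200 bp, as a point with its 95% Wilson interval, and the dashed line is the share over all 67377 regions. The x axes differ between panels. WT-gained regions stand highest for SOX (18.3%), and both ΔHMG-only classes stand highest for AP1 (35.8% and 30.7%).

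A count of all 7-base words used no chosen consensus. It gave the AP1 letters again, but for WT-gained regions it led with a word outside the searched SOX consensus. The word that most set WT-gained regions apart was AACAAAG, in 16.3% of them and 4.27% of the other regions. It holds the ACAAA form of the SOX core, and AACAATG (12.95% against 3.16%) and ACAATGG (11.4% against 2.59%) hold the ACAAT form. In both ΔHMG-only classes the first word was TGACTCA, at 35.8% against 19.5% in ΔHMG-kept regions and at 30.7% against 20.7% in ΔHMG-gained regions. Shared regions listed without DOX were led by CCCGCCC, at 13.3% against 2.79%, a GC-rich word of promoters. Shared regions not listed without DOX were led by parts of the CTCF consensus, among them AGAGGGC at 12.3% against 5.87%.

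The matches lay at the middle of the regions. Per 50 bp, the SOX consensus was in 1.31% of WT-gained regions at 450 to 500 bp before the centre and in 5.57% just before the centre. In ΔHMG-kept regions it went the other way, from 1.14% at that edge to 0.626% at the centre. The AP1 consensus went from 0.933% at the edge to 12.1% at the centre of ΔHMG-kept regions, and from 0.657% to 3.36% in WT-gained regions. Some WT-gained regions held 2 ACAAT cores facing each other (ACAAT, a spacer, then ATTGT). Spacers of 5, 6 and 7 bases were in 59, 60 and 37 of the 12488 regions, whereas each other spacer searched was in 4 to 19. With the cores back to back, the most frequent spacer was 6 bases, in 26 regions. A facing pair of cores 3 to 5 bases apart was in 74 WT-gained regions (0.593%) and in 5 of all 15270 ΔHMG-only regions. It was in 24 of the 36061 shared regions (0.0666%). Facing cores 6 and 7 bases apart were in 0.481% and 0.296% of WT-gained regions and in no ΔHMG-only region. In shared regions listed without DOX these shares were 0.0348% and 0.0261%.

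**Figure D3:**
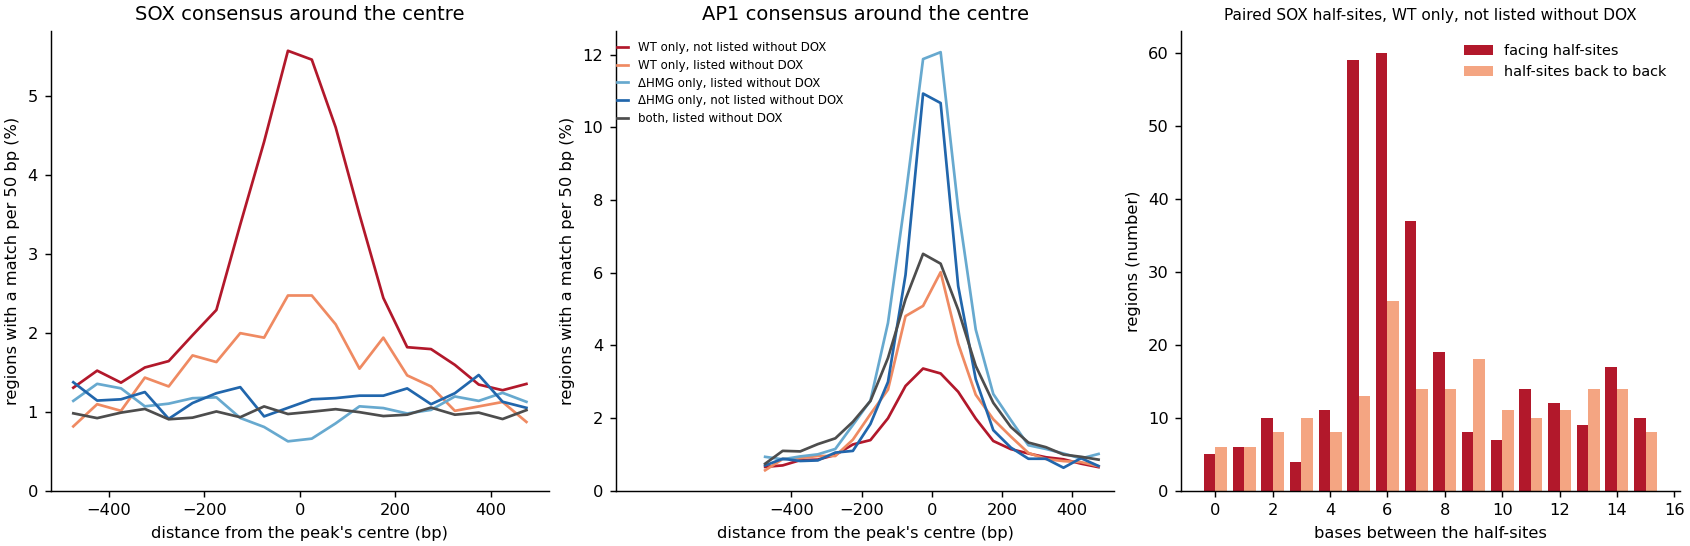
The left and middle panels give the share (%) of regions with a SOX or an AP1 match in each 50-bp step from the centre of the region (bp), by class, and the right panel counts the WT-gained regions with 2 ACAAT cores by the number of bases between them. SOX matches rise to 5.57% at the centre of WT-gained regions, AP1 matches rise to 12.1% at the centre of ΔHMG-kept regions, and facing cores peak at spacers of 5 and 6 bases.

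The same regions were then looked up in the other lists of the series, which the rule did not use. The cultured lists were ΔTA-SOX9 (SOX9 without its TA domain), AFOS (a dominant-negative FOS that blocks AP1), AFOS together with wild-type SOX9 (SOX9+AFOS), and wild-type SOX9 with overexpressed ARID1a, a subunit of the SWI/SNF remodeller (SOX9+ARID1a). Peaks of the last 3 of these carry names that mention fragments as input, so they may have been called differently. Per the paper, lentivirus brought AFOS or ARID1a into Krt14-rtTA cells or into Krt14-rtTA cells that already carried TRE-mycSOX9. The source of SOX9 may thus differ from that in the WT-SOX9 cells. No day on DOX is labelled for the AFOS, SOX9+AFOS and SOX9+ARID1a samples. WT-gained regions were in the ΔTA-SOX9 list in 5.74% and in the AFOS list in 9.56%, whereas ΔHMG-gained regions were in them in 62.99% and 64.7%. These are differences of −57.2 points (−58.5 to −56.0) and −55.2 points (−56.4 to −53.9). In the SOX9+AFOS list the order was reversed, at 32.7% of WT-gained and 12.3% of ΔHMG-gained regions, and likewise in the SOX9+ARID1a list, at 38.4% and 19.8%. Over all 67377 regions the 4 shares were 69.1%, 71.5%, 56.8% and 67.8%. WT-gained and ΔHMG-gained regions also differed in score, and shares at like scores are given below for the SOX9+ARID1a list.

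ΔHMG-kept regions were in the ΔTA-SOX9 list in 83.8%, in the AFOS list in 83.5%, in the SOX9+AFOS list in 23.2% and in the SOX9+ARID1a list in 60.8%. The AP1 consensus was in 16.4% of the ΔHMG-kept regions that the SOX9+AFOS list held and in 41.7% of those it lacked. In the AFOS list alone the order was the other way, at 38.2% of those it held and 23.8% of those it lacked, and so it was in the ΔTA-SOX9 list, at 38.7% and 21.1%. Both further wild-type SOX9 lists, but neither the ΔTA-SOX9 nor the AFOS list, held 3256 WT-only regions (20.3%) and 282 ΔHMG-only regions (1.85%), against 5.86% of all regions. The reverse combination was found for 4580 ΔHMG-only regions (30.0%) and 241 WT-only regions (1.502%), against 9.14%. A share of each class was in none of the 4 lists, namely 47.0% of WT-gained, 16.1% of ΔHMG-gained and 2.62% of ΔHMG-kept regions.

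Presence in other lists followed the score. Of WT-gained regions, 20.8% were in the SOX9+ARID1a list at scores of 3 to 4 and 84.3% at scores of at least 20, and presence in the ΔTA-SOX9 list went from 7.78% to 2.75%. At scores of 3 to 4, 4 to 6, 6 to 10 and 10 to 20, the SOX9+ARID1a list held 15.9%, 19.5%, 25.5% and 37.7% of ΔHMG-gained regions. It held 20.8%, 27.2%, 38% and 57.4% of WT-gained regions at those scores. The gap was thus narrower at scores under 10 than over the whole classes. Of the 100 WT-gained regions with the highest scores, the SOX9+ARID1a list held 100, the SOX9+AFOS list 87, the AFOS list 6 and the ΔTA-SOX9 list 4. Of the 100 highest ΔHMG-gained regions, the same lists held 41, 9, 96 and 100. Of the 100 highest ΔHMG-kept regions, they held 82, 15, 100 and 100.

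The in vivo lists came from mouse epidermis in which SOX9 was induced. Per the paper, these mice carried both Krt14-rtTA and TRE-Sox9. This epidermis was sampled at day 0 (D0) and at weeks 1, 2, 6 and 12 (W1, W2, W6, W12). Age rose together with time on DOX from D0 to W6, so these cannot be told apart. Per the paper, the W12 samples came from newborn skin grafted onto immunocompromised mice and left to heal before DOX. W12 therefore differs from the earlier times by grafting as well as by time, and its age is not labelled. In these lists, WT-gained regions were more often listed late. The share listed was 10.8% at D0 and 11.3% at W1, then 26.7% at W2, 34.4% at W6 and 29.5% at W12. For ΔHMG-gained regions the shares at these 5 times were 14.3%, 14.9%, 14.2%, 20.9% and 23.7%. At W6 the difference between these classes was 13.4 points (12.1 to 14.7). The lists at W6 and W12 are also longer than that at D0, and over all regions the shares were 48.7%, 48.3%, 54.8%, 62.5% and 63.2%. Regions absent at D0 and listed at W6 made up 24.7% of WT-gained, 26.7% of WT-kept, 16.3% of ΔHMG-kept and 10.7% of ΔHMG-gained regions, and 24.8% of shared regions not listed without DOX, against 16.5% of all regions. Of the regions listed at D0, those absent at W2 were 23.9% (752 of 3150) in ΔHMG-kept, 32.8% (304 of 926) in ΔHMG-gained, 13.4% (181 of 1348) in WT-gained and 9.93% (159 of 1602) in WT-kept regions, against 7.79% of all. All 4 single-list classes thus stood above that background, and the ΔHMG-only classes stood above the WT-only classes. Shared regions not listed without DOX stood above it too, at 22.2% (97 of 437). Shared regions listed without DOX were at 4.2%. ΔHMG-kept regions were listed in 35.8% at D0 and in 34.2% at W2.

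**Figure D4:**
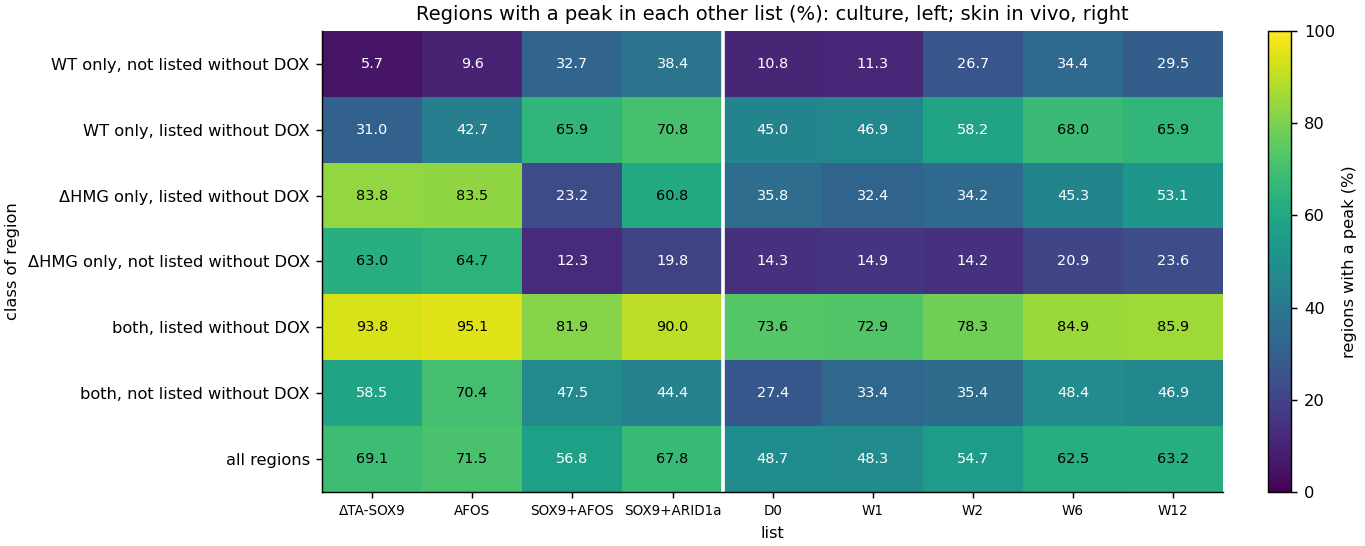
Each cell gives the share (%) of the regions of 1 class (rows) that had a peak in another list (columns), for the 4 other induced culture lists on the left and the 5 in vivo lists on the right. WT-gained regions are dark (low) under ΔTA-SOX9 and AFOS (5.74% and 9.56%), where ΔHMG-kept and ΔHMG-gained regions are bright (high; 62.99% to 83.8%).

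Single regions with the highest scores followed these shares in the other lists. The regions at Otogl, Slc1a1, Gp9, Smarca2 and Zfp143 named below held neither the SOX nor the AP1 consensus in the central 200 bp. The strongest WT-gained region was in a coding exon of Otogl, an otogelin-like gene, at chr10:107909586-107910185. It scored 90.6 with WT-SOX9, 43.8 with SOX9+AFOS and 43.3 with SOX9+ARID1a, and in vivo 32.3 at W2, 26.1 at W6 and 26.1 at W12, and it was missing from the noDOX, ΔHMG-SOX9, ΔTA-SOX9, AFOS, D0 and W1 lists. The Dock2 region had the same pattern, with 65.5 and 50.7 in culture and 41.8, 46.9 and 29.5 in vivo. The strongest WT-kept region, 7.005 kb upstream of Slc1a1, a glutamate transporter (chr19:28827751-28828386), scored 28.6 without DOX and 100 with WT-SOX9. The strongest ΔHMG-kept region was intergenic with Hs1bp3 as its nearest gene (chr12:8388646-8389330), and it scored 60.2 without DOX and 69.4 with ΔHMG-SOX9. It was listed in vivo at all 5 times, and it held a SOX match and no AP1 match. The next, 15.5 kb upstream of the platelet gene Gp9 (chr6:87762241-87762950), scored 9.59 without DOX, 64.4 with ΔHMG-SOX9, 102 with ΔTA-SOX9 and 50.5 with AFOS. The 3 strongest ΔHMG-gained regions were in introns of Hibadh (25.5), of Smarca2, which encodes a SWI/SNF ATPase (24.9), and of Zfp143 (24.6). All 3 were in the ΔTA-SOX9 and AFOS lists and absent from the SOX9+AFOS list and all 5 in vivo lists, and all 3 were listed with low scores in SOX9+ARID1a (3.46, 5.06 and 3.46).

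Regions present in both lists often had unequal scores. The median log2 ratio of WT-SOX9 to ΔHMG-SOX9 score over the 36061 shared regions was −0.10, with quartiles of −0.75 and 0.34. The WT-SOX9 score was at least 2-fold higher in 2611 regions (7.24%), and the ΔHMG-SOX9 score was at least 2-fold higher in 6683 (18.5%). The SOX consensus was in 10.7% of the former and 3.28% of the latter, against 4.02% of all shared regions. The AP1 consensus was in 19.3% and 34.4%, against 20.3%. The SOX9+AFOS list held 82.5% of the former and 60.1% of the latter, against 80.4% of all shared regions. The SOX9+ARID1a list did not separate them in this way, at 90.3% and 91.5%, against 87.97%. Place moved with the ratio as well: regions within 1 kb of a start made up 15.6% of those higher with WT-SOX9 and 3.94% of those higher with ΔHMG-SOX9, both below the 29.8% of all shared regions, and the part of place in the other shares was not tested. Among shared regions listed without DOX, the WT-SOX9 score was at least 2-fold below the noDOX score in 20.8% and the ΔHMG-SOX9 score in 7.67%.

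To see which genes the regions lie near, each region was given to the nearest transcription start within 100 kb. This placed 56837 regions at 15895 genes, and 21.3% of the placed regions were WT only and 22.0% ΔHMG only. Of these genes, 6827 had a WT-only and 7240 a ΔHMG-only region, and 3487 had both kinds. At least 3 WT-only regions were found at 1260 genes and at least 3 ΔHMG-only regions at 1247, with 290 genes in both sets. The genes with most WT-only regions were Pde4d (a cAMP phosphodiesterase; 17), Mitf (a bHLH transcription factor; 16), Chl1 (a neural cell adhesion molecule; 16), Foxp1 (a forkhead factor; 12) and, with 11 each, Ppm1h and Ccser1. Those with most ΔHMG-only regions were Foxp1 (14), Etl4 and Mast4 (12 each) and Tiam1 (a RAC exchange factor; 11). Long genes can hold more regions of every kind, and Foxp1 and Pde4d stand in both rankings.

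Single genes could be sided. Chl1 had 16 WT-only regions, all not listed without DOX, with scores from 3.04 to 32.4, and 1 ΔHMG-only region that was also listed without DOX (14.3 without DOX, 9.87 with ΔHMG-SOX9). Mitf had 14 WT-gained and 2 WT-kept regions, the strongest in an intron at 37.1, and 3 ΔHMG-kept regions. The melanocyte genes Tyr, Mlana, Pmel and Dct had no start peak in any of the 3 lists. Mast4, a microtubule-associated kinase gene, had 12 ΔHMG-only regions and no WT-only region, with scores from 3.02 to 19.5. When regions were instead counted over the gene body and 10 kb on each side, Mast4 had 16 ΔHMG-only and 3 WT-only regions, and Chl1 had 14 WT-only and 0 ΔHMG-only.

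The SOX family had the highest WT-only share of 18 gene lists. Of 65 regions at 14 of its 15 genes, 30 (46.2%; 34.6% to 58.2%) were WT only and 12 (18.5%) were ΔHMG only. Sox5, which encodes a SoxD factor without a transactivation domain, had 10 WT-only and no ΔHMG-only regions among 12. Over its gene body and 10 kb on each side, which takes in regions nearer to other starts or over 100 kb from one, Sox5 had 12 WT-only, 2 ΔHMG-only and 8 shared regions among 22. All 10 of the first count lay in its introns, 7 of them were not listed without DOX, and their WT-SOX9 scores ranged from 3.04 to 17.7. The 5 with a SOX match were all among the 7. Sox13 had 5 WT-only and 2 ΔHMG-only regions, Sox6 had 4 and 0, and Sox2 had 3 and 0. Sox9 itself had 1 WT-only region, 70.5 kb upstream of its start (chr11:112711292-112712205), which scored 54.0 with WT-SOX9 and was in neither of the other lists. It also had 4 ΔHMG-only regions, with ΔHMG-SOX9 scores of 3.23 to 8.26.

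AP1 subunit genes had the highest ΔHMG-only share. Of 68 regions at 10 genes, 22 (32.4%; 22.4% to 44.2%) were ΔHMG only and 6 (8.82%; 4.11% to 17.9%) were WT only. Jun had 6 ΔHMG-only regions and 1 WT-only region. The strongest of the 6, 89.2 kb upstream of its start, held the AP1 consensus and scored 11.4 without DOX, 28.6 with ΔHMG-SOX9, 25.2 with ΔTA-SOX9 and 32.8 with AFOS. Fos had 5 and 1, Fosl2 had 4 and 1, and Fosl1 had 3 and 0. Jun had 1 ΔHMG-only and no WT-only region over its gene body and 10 kb on each side, so its count rests on more distant regions.

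Keratin genes had few ΔHMG-only regions, 6 of 61 (9.84%; 4.59% to 19.8%), and 15 WT-only regions (24.6%). Krt14 and Krt5, the keratin pair of basal keratinocytes, had 3 and 2 WT-only regions and no ΔHMG-only region. The strongest at Krt14, 14.4 kb upstream, scored 15.98 with WT-SOX9, and the strongest at Krt5, 9.05 kb upstream, scored 19.2, and neither was listed without DOX. Genes of epithelial-mesenchymal transition and cadherins had 21 WT-only regions of 69 (30.4%; 20.9% to 42.1%) and 13 ΔHMG-only regions. N-cadherin (Cdh2) accounted for 7 of the 21, all WT-gained. Transcription factors of hair follicle stem cells had 50 WT-only regions of 177 (28.2%; 22.1% to 35.3%) and 40 ΔHMG-only regions (22.6%). Among them, Tcf7l2, a WNT effector, had 9 WT-only and 4 ΔHMG-only regions, and Runx1 had 7 and 3 (3 and 3 over its gene body and 10 kb on each side).

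Genes of the epidermal differentiation complex, which encode proteins of the cornified layers, had 5 WT-only regions of 69 (7.25%; 3.13% to 15.9%) and 14 ΔHMG-only regions (20.3%). Cytokine genes had 23 WT-only regions of 153 (15.03%; 10.2% to 21.6%) and 41 ΔHMG-only regions (26.8%; 20.4% to 34.3%). Of these, Il33 and Csf2 had 6 ΔHMG-only regions each, against 2 and 1 WT-only, and Tslp, which encodes a keratinocyte cytokine, had 5 and 0. The stress response list was at 15.1% WT only and 20.9% ΔHMG only, with Vegfa, a hypoxia-responsive growth factor, at 0 and 4 regions, none of them within 10 kb of its gene body. Epidermal identity factors were at 19.5% and 20.95%, near the background, although Ehf, an ETS factor of epithelia, had 9 WT-only and 1 ΔHMG-only region. The Hedgehog list was at 22.1% and 26.5%, the WNT list at 24.1% and 27.3%, the TGF-β and BMP list at 20.9% and 24.3%, the Notch list at 21.3% and 20%, and the EGF list at 16.3% and 21.7%. Follicle surface and niche genes were at 21.4% and 26.4%, integrins and basement membrane at 18.01% and 19.2%, desmosomes and tight junctions at 19.6% and 19.6%, and MLL3/4 and SWI/SNF remodellers at 19.1% and 25%. Of the 36 shares (18 lists, 2 kinds of region), 29 had an interval that held the share over all placed regions. The 7 others were the WT-only shares of the SOX family and of the hair follicle stem cell factors and the ΔHMG-only shares of the AP1 and WNT lists, which lay above it, and the WT-only shares of the AP1 list and the epidermal differentiation complex and the ΔHMG-only share of the keratins, which lay below it. Regions at 1 gene are not independent, so these intervals are too narrow. Over gene bodies and 10 kb on each side, where 21.4% of all regions were WT only and 21.3% ΔHMG only, 4 of the 7 no longer stood apart: ΔHMG-only at AP1 (31.4%; 20.3% to 45.03%), WNT (23.5%) and keratin genes (11.1%) and WT-only at hair follicle stem cell factors (27.3%). Within the other lists single genes were uneven, such as Smad3 (4 WT only, 8 ΔHMG only) and Bmpr1b (3 and 9), a SMAD and a BMP receptor, and Maml2 (10 and 4), a Notch co-activator.

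**Figure D5:**
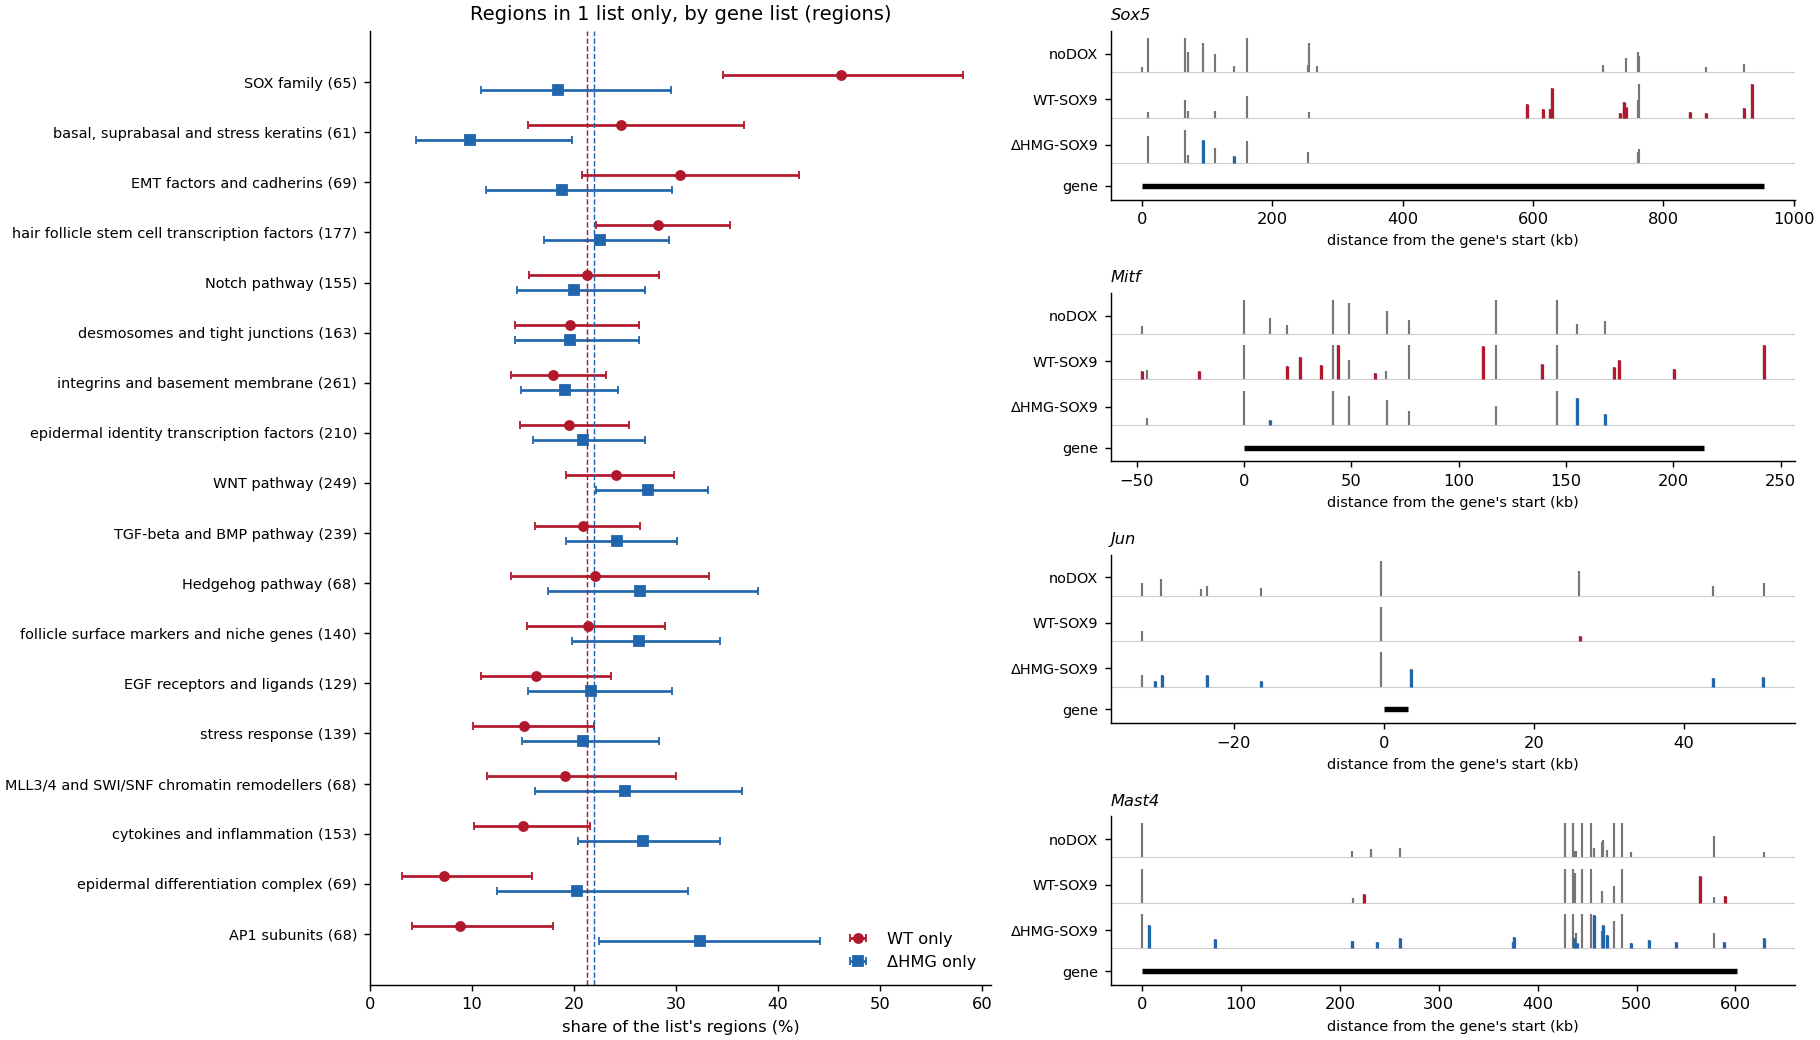
The left panel gives, for each of 18 gene lists with its number of regions, the share (%) that was WT only (red circles) and ΔHMG only (blue squares) with 95% Wilson intervals. The right panels, from top to bottom, map the peaks of the noDOX, WT-SOX9 and ΔHMG-SOX9 lists at Sox5, Mitf, Jun and Mast4. Their x axis is the distance from the gene's start (kb), and bar height is the score up to 20. The SOX family stands highest in WT-only share (46.2%) and AP1 subunits in ΔHMG-only share (32.4%).

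The lists were set against the labels. The transgenes share sequence with the Sox9 exons, where the WT-SOX9 list had a peak of 3425 bp (score 21.2), the ΔHMG-SOX9 list had peaks of 369 and 2902 bp (scores 5.27 and 71.9), and the noDOX list had peaks of 1565 and 527 bp (scores 21.8 and 3.71). The WT-SOX9 score was thus no higher than the noDOX score, and the larger ΔHMG-SOX9 peak spanned exon 2 and nearly all of the coding part of exon 1, which encode the HMG domain. The endogenous gene lies under these peaks too, so they show neither the presence of the transgene nor the loss of the domain, and the labels of the 2 constructs could not be checked here. All 8 keratinocyte markers had a start peak in all 3 lists. Of 18 markers of fibroblasts, endothelial cells, immune cells and melanocytes, 4 had one in at least 1 list, namely Pdgfra, Kdr, Csf1r and Mitf. Csf1r scored 19.4 without DOX, 6.02 with WT-SOX9 and 51.5 with ΔHMG-SOX9, while Ptprc, Cd3e and Itgam had no start peak in any of the 3.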

How the data were processed

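ATAC-seq of cultured EpdSCs was deposited as peak lists, 1 per group, in which the authors had merged the replicates. Per the submitters' processing notes, Bowtie2 2.2.9, SAMtools 1.9, Picard 2.3.0, MACS2 2.1.1 and deepTools 2.5.4 were used, with GRCm38. Each deposited peak carries a score of at least 3, which appears scaled to a common total within a list (inferred from the values). A score of 3 may therefore not stand for the same number of reads in each list. Lists were merged with Python 3.11.15 (pandas 2.3.3, numpy 2.4.6), and sequence was read from GRCm38 with pysam 0.24.0. Genes and starts came from the GENCODE vM21 annotation of that build. Figures were drawn with matplotlib 3.10.9. A region's score in a list is the highest of its peaks. Sequences were taken from the 2 highest-scoring matches per class shown, chromosome 18 left out. The scripts were tested on simulated data. Named genes are Sox9, the 5 regions with the highest scores per single-list class, the 10 genes with most regions of each kind, and up to 4 genes per gene list with most single-list regions. Sox6 and Sox2, outside that rule, were chosen after their values were seen, as were the facing-core counts. The members and lists were chosen with earlier results of these data known. No replicate test was possible. Alternatives were a score of at least 5 or 6, lists matched in length, overlap of at least 50%, merging within 200 bp, the full region, regions over 1 kb from starts, gene bodies, and windows with 45 to 50% GC (chosen after seeing the data).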

Additional observations from a re-analysis of the deposited data

How the results depend on the processing

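No paired analysis was possible because the authors' lists pool both replicates, and leaving out a replicate was not possible for the same reason. The number of WT-only regions ranged from 11419 (score of at least 5) to 16101 (overlap of at least 50%), that of ΔHMG-only regions from 12284 to 15482 and that of shared regions from 28182 to 36177. The setting with at least 50% overlap counted single peaks and not merged regions, and its shared count (36177) was of WT-SOX9 peaks. All these counts stayed within 1.5 times the reported ones, as did the 8905 WT-gained and 7358 ΔHMG-kept regions at a score of at least 5. The SOX share of WT-gained regions (18.3%) was 29.8% over full regions, which are longer than the 200-bp window, 20.9% at scores of at least 6 and 18.02% at 45 to 50% GC, a range chosen after seeing the data. The AP1 share of ΔHMG-kept regions (35.8%) was 48.4%, 37.8% and 38.6% under the same settings. Over all gene lists, the ΔHMG-only share was 22.3%, and 20.4% when regions were counted over gene bodies and 10 kb on each side. Of 36 shares by list, 32 stayed inside their 95% interval under that rule. By comparison with all regions at gene bodies, 10 of the 36 shares stood apart under it against 7 in the report, with 3 in both. The SOX family (49.2% WT only), the AP1 list (5.88% WT only) and the epidermal differentiation complex (9.62% WT only) were those 3. Hedgehog genes went from 26.5% to 16.7% ΔHMG only, below their WT-only share (23.1%). Peak lists without depth limit every absence: a region under the score threshold cannot be told from one that was read too shallowly.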
